A study of Mus musculus with 4 samples.

Results

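Laminins are the adhesive proteins of the basement membrane, the thin sheet of matrix that surrounds each heart muscle cell and every capillary. The 10 genes described here were taken by symbol from the count table: the laminin alpha chains Lama2, Lama4 and Lama5, the beta chains Lamb1 and Lamb2, the gamma chain Lamc1, the nidogens Nid1 and Nid2, perlecan (Hspg2) and agrin (Agrn). All 10 were found among 54752 gene identifiers, and all 10 passed the filter on low counts that left 15283 genes for testing. The data are 4 RNA-seq libraries of mouse heart tissue at postnatal day 14, 2 of them wild type and 2 with the genotype label Carm1 mutant. Carm1 encodes an arginine methyltransferase of histones and coactivators. No label states the Carm1 allele, the strain, the sex or whether each library is a different animal. The p-values therefore reflect library-to-library variation, part of which may be technical.

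A laminin is a trimer of 1 alpha, 1 beta and 1 gamma chain. Trimers bind each other through their short arms and bind integrins and dystroglycan on the cell surface through the globular end of the alpha chain. Nidogens attach to the gamma 1 chain and link the laminin network to the network of type IV collagen, perlecan adds heparan sulfate chains, and agrin couples laminin to dystroglycan. In heart, the alpha 2 chain belongs to the muscle cell surface, while the alpha 4 and alpha 5 chains are well known from blood vessels.

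The start-site windows of 3 of the genes are shown because Lama5 and Agrn had the largest group differences and Lama2 the smallest. RefSeq windows on GRCm38.p6 were matched by symbol for 7 of the 10 genes, with 8 windows in all, each running from 250 bases before to 50 after a start. Capitals mark GGGCGG or its reverse complement, the letters of a GC box, on either strand, and neighbouring matches may share a base.
Lama5, chr2:180225810-180226109, minus strand: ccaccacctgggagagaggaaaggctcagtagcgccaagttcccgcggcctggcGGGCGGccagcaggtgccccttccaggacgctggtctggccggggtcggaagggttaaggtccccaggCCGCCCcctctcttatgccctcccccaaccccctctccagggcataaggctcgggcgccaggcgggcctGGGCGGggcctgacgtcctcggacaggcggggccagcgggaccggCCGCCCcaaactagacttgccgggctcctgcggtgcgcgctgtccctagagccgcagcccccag
Agrn, chr4:156197439-156197738, minus strand: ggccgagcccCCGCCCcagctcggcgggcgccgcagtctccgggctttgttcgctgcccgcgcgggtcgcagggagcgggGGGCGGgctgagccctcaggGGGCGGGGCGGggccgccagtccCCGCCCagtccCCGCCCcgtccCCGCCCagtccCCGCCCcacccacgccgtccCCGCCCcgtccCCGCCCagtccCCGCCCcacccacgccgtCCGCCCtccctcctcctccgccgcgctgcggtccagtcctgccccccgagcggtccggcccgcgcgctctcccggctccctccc
Lama2, chr10:27616893-27617192, minus strand: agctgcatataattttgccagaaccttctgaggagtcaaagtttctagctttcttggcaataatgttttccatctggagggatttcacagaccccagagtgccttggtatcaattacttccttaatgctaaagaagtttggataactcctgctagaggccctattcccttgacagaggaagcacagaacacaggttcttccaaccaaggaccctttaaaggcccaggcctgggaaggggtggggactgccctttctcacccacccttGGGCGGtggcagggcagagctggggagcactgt

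The Lama5 window was 72.7% G or C with 4 GC boxes, and the Agrn window was 83.3% with 12. The Lama2 window was 50.3% with 1 GC box and a ratio of observed to expected CpG of 0.0527, against a median of 0.384 over 32851 windows of all genes. Its start lies 2816 bases inside the gene start of GENCODE M21, whereas the Lama5 and Agrn starts shown coincide with it. Of the 7 genes, 6 held a GC box in a window (all but Lamb2), against 35.7% of windows of all genes. CCAAT on either strand occurred in 2, Lamb1 and Nid1, against 37.4% of all windows, and TATAAA in 0 against 13.6%. The counts are of genes and the percentages of windows, and Agrn had 2 windows. These matches describe letters in a window and not bound factors.

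Library totals were 11677604 to 22217442 counts, and the lowest count of any of the 10 genes in a library was 810, at which counting error alone is 3.51%. Carm1 itself had 803 and 1025 counts in the wild-type pair, against 897 and 432 in the mutant-labelled pair (edgeR log2 fold change −0.54, SE 0.19, adjusted p 0.114), so the label was not settled by its level. Xist had 12 and 15 counts against 8116 and 3921 and Ddx3y 575 and 741 against 1 and 0, so the groups also differ in sex and each difference below cannot be told apart from one between the sexes. Wild type replicate 1 stood apart from the other libraries: across genes its deviation from the mean of all libraries had a Spearman rho of −0.34 with transcript length, against 0.27 in wild type replicate 2, 0.20 in mutant replicate 1 and −0.0035 in mutant replicate 2. The longest transcripts of the 10 genes run from 4876 to 14187 bases, against a median of 3181 bases over tested genes, and values with each library's length trend removed are given with the calls.

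None of the 10 genes passed an adjusted p of 0.05 in the edgeR quasi-likelihood test, against 7.37% of all tested genes. At an unadjusted p under 0.05 there were 2, Lama4 and Lama5, against 27.8% of tested genes, while DESeq2's Wald test called 1 higher, Lama5 (4.2% of its genes were called higher), and limma-voom called 0 (against 2.79%). The log2 fold change was above 0 for 8 of the 10, against 51.6% of tested genes, and the median was 0.41 against 0.023. The mutant-labelled libraries both lay above both wild-type libraries for 6 genes, Lama4, Lama5, Lamb1, Lamc1, Hspg2 and Agrn, which held for 30.3% of tested genes, and for 0 both lay below (28.7%, or 59.0% in either direction). Summed over the 10 genes, the level was 2060 and 3253 CPM (counts scaled to a common library size by TMM) in the wild-type pair, against 3645 and 3363 in the mutant-labelled pair. In whole tissue, fewer cells of a type and less RNA per cell cannot be told apart.

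**Figure D1:**
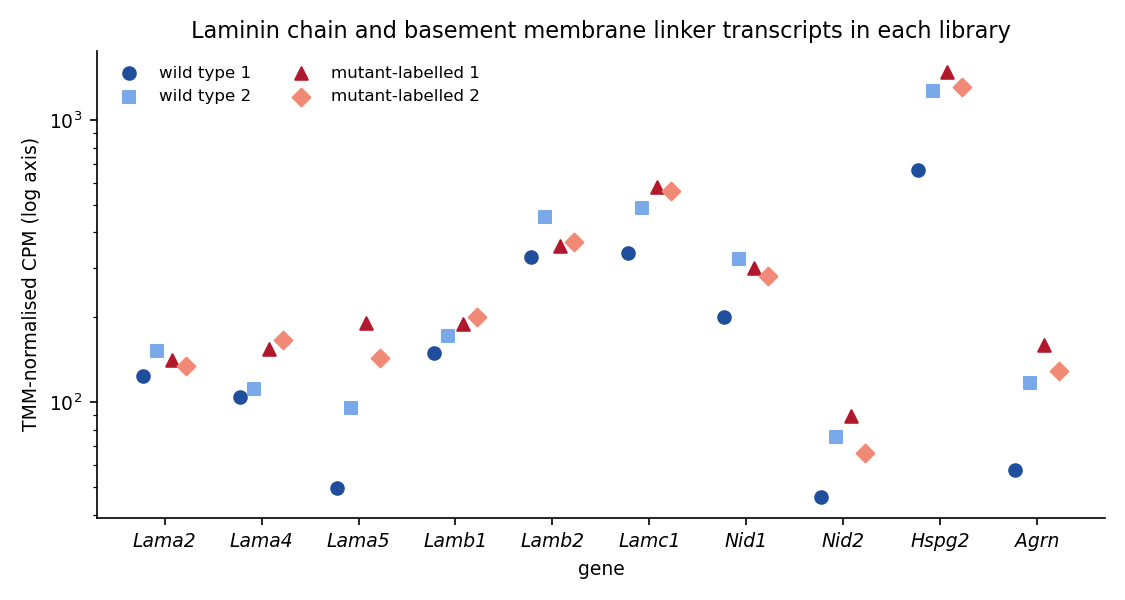
TMM-normalised CPM (log axis) of the 10 genes, with 1 point for each of the 4 libraries and no averaging. Wild type 1 is the lowest point for every gene, and Lama5 is the gene with the widest gap between groups.

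Among the alpha chains, Lama5 differed most and Lama2 least. Lama5 (ENSMUSG00000015647, GRCm38 chromosome 2, 180176373 to 180225859, minus strand), the alpha 5 chain of vessel and epithelial basement membranes, had 49.8 and 95.8 CPM in the wild-type pair, against 191 and 144 CPM in the mutant-labelled pair. The groups did not overlap, but wild type replicate 1 was close to 2-fold below replicate 2. The log2 fold change was 1.2 (SE 0.32, 95% interval 0.46 to 1.94, edgeR adjusted p 0.0609), or 2.30-fold. Lama5 missed the threshold with all 4 libraries. Its log2 fold change was 0.79 without wild type replicate 1 and 1.71 without wild type replicate 2. It was 0.98 without mutant replicate 1 and 1.38 without mutant replicate 2. Each of these fits leaves a group of 1 library.

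Lama4 (ENSMUSG00000019846, chromosome 10, 38965515 to 39110188, plus strand) encodes the alpha 4 chain, which lacks most of the short arm of other alpha chains. It had 104 and 111 CPM in wild type against 154 and 166, with little spread inside either group. Its log2 fold change was 0.57 (SE 0.19, interval 0.13 to 1.02, edgeR adjusted p 0.103), and it was the member with the smallest difference between the wild-type libraries, 0.09 on the log2 scale. Lama2 (ENSMUSG00000019899, chromosome 10, 26980036 to 27619758, minus strand) encodes the alpha 2 chain, whose loss causes a congenital muscular dystrophy. It had 124 and 152 CPM against 141 and 134, so the mutant-labelled values fell between the wild-type ones. Its log2 fold change was −0.0042 (SE 0.20, edgeR adjusted p 0.991), and the 95% interval of −0.47 to 0.46 leaves room for folds between 0.721 and 1.38.

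The beta and gamma chains differed less than Lama4 and Lama5. Lamb1, the beta 1 chain (ENSMUSG00000002900, chromosome 12, 31265234 to 31329644, plus strand) had 149 and 172 CPM in the wild-type pair, against 190.3 and 199.98 in the mutant-labelled pair (log2 fold change 0.28, SE 0.20, interval −0.18 to 0.74, edgeR adjusted p 0.400). Lamb2 (ENSMUSG00000052911, chromosome 9, 108479736 to 108490530, plus strand), the beta chain of nerve-muscle junctions and kidney filters, had 326 and 453 CPM against 359 and 369. For Lamb2 the groups overlapped, and the log2 fold change was −0.10 (SE 0.23, interval −0.64 to 0.45, edgeR adjusted p 0.821). Lamc1 (ENSMUSG00000026478, chromosome 1, 153218922 to 153332786, minus strand), the gamma chain of most laminins, had 337 and 488 CPM against 580 and 561. The mutant-labelled pair agreed closely while the wild-type pair did not, and the log2 fold change was 0.47 (SE 0.25, interval −0.10 to 1.04, edgeR adjusted p 0.260).

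For the nidogens the groups overlapped. Nid1 (ENSMUSG00000005397, chromosome 13, 13437551 to 13512269, plus strand) had 201 and 323 CPM in the wild-type pair, against 299 and 281 in the mutant-labelled pair, with a log2 fold change of 0.15 (SE 0.26, interval −0.46 to 0.75, edgeR adjusted p 0.754). Nid2 (ENSMUSG00000021806, chromosome 14, 19751265 to 19811787, plus strand) had 46.3 and 75.5 CPM against 89.7 and 66.2, with a log2 fold change of 0.36 (SE 0.27, interval −0.28 to 0.99, edgeR adjusted p 0.437). In each, wild type replicate 2 lay above at least 1 mutant-labelled library. The exons of Nid2 share 437 bases with those of Rtraf on the other strand, which had 2383 and 1591 counts in the wild-type pair, against 1543 and 1077 in the mutant-labelled pair. No source used here states whether reads were counted by strand, so Nid2 counts are uncertain to that extent. Nid1 shares 225 bases at 99.6% identity with Gm2399, which had 3, 3, 0 and 1 counts.

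The heparan sulfate proteoglycans, with Lama5, varied most between the wild-type libraries. Hspg2 (ENSMUSG00000028763, chromosome 4, 137468769 to 137570630, plus strand), the large proteoglycan perlecan, had 665 and 1266 CPM in the wild-type pair, against 1482 and 1313 in the mutant-labelled pair. Wild type replicate 2 was nearly level with mutant replicate 2, and the log2 fold change was 0.53 (SE 0.32, interval −0.21 to 1.28, edgeR adjusted p 0.321). Agrn (ENSMUSG00000041936, chromosome 4, 156165290 to 156197488, minus strand), known to organise acetylcholine receptors at the nerve-muscle junction, had 57.4 and 117 CPM against 160.4 and 129. Its log2 fold change was 0.73 (SE 0.33, interval −0.03 to 1.49, edgeR adjusted p 0.194). Without wild type replicate 2 the log2 fold changes of Hspg2 and Agrn were 1.03 and 1.3 (edgeR adjusted p 0.000642 and 0.000332), and without wild type replicate 1 they were 0.13 and 0.29 (0.636 and 0.302).

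The wild-type libraries differed from each other in 1 direction. Wild type replicate 1 was the lowest of the 4 libraries for 10 of the 10 genes, which held for 35.8% of tested genes. The log2 ratio of wild type replicate 2 to replicate 1 had a median of 0.61 over the 10 genes and of 0.0028 over all tested genes, and was 0.94 for Lama5, 0.93 for Hspg2 and 1.03 for Agrn. In 7 of the 10 genes the wild-type libraries differed by more than the groups did, against 48.7% of tested genes; the exceptions were Lama4, Lama5 and Lamb1. The log2 ratio of mutant replicate 2 to replicate 1 ran from −0.44 for Nid2 to 0.11 for Lama4, and was smaller in size than the wild-type one for every gene but Lama4.

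**Figure D2:**
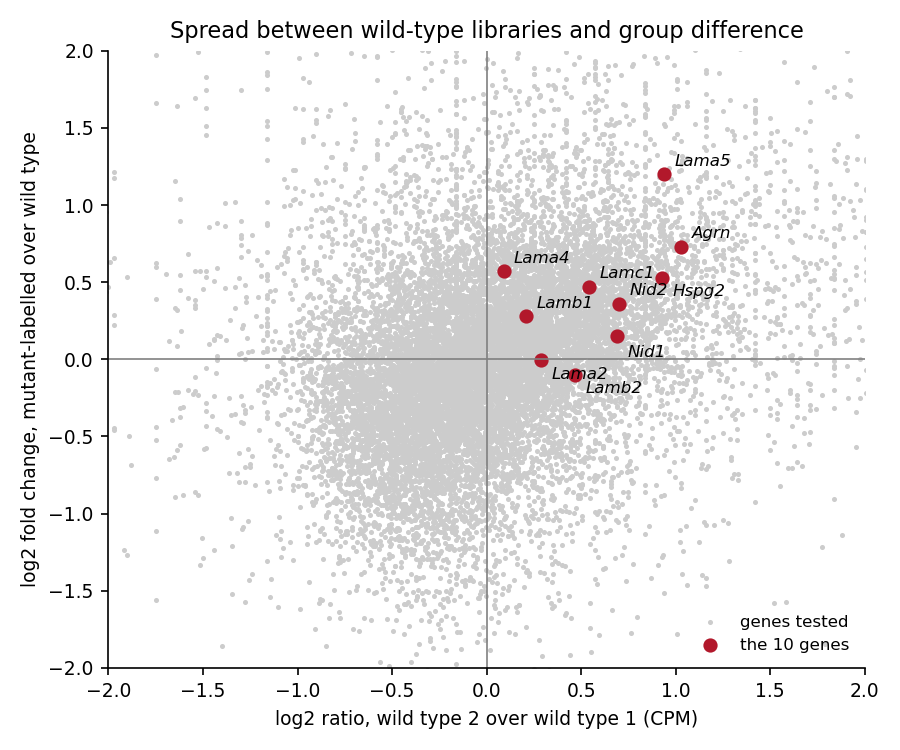
Each point is a gene, with the log2 ratio of wild type 2 to wild type 1 on the horizontal axis and the log2 fold change of the groups on the vertical axis; grey points beyond 2 on either axis are not drawn, and the axes share the wild-type libraries. All 10 genes (red) lie right of 0, from 0.09 for Lama4 to 1.03 for Agrn.

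The number of calls changed with the libraries used. Without wild type replicate 2, 7 of the 10 genes passed as higher (Lama4, Lama5, Lamc1, Nid1, Nid2, Hspg2 and Agrn), in a fit where 16.0% of all genes did. Without wild type replicate 1, 2 passed (Lama4 and Lama5, against 5.52% of all genes), without mutant replicate 2, 1 (Lama5, against 1.4%), and without mutant replicate 1, 0 (against 1.52%). The median over the 10 genes was 0.65, 0.15, 0.50 and 0.38 in these fits. When each library's trend with transcript length was removed, 1 gene passed, Lama5 (log2 fold change 1.0, SE 0.18, edgeR adjusted p 0.00746, against 7.79% of all genes called higher), and the median was 0.30. Removing the trends with length and GC content left Lama5 at 0.86 (SE 0.17, edgeR adjusted p 0.0103, against 7.57%), Hspg2 at 0.14 and Agrn at 0.51. Scaling by library totals alone moved the median of all genes to 0.41 and that of the 10 genes to 0.78, with Lama4 and Lama5 called (against 7.78%). With no filter on low counts Lama5 and Agrn passed (against 4.42%). Under library totals Lama2 and Lamb2 had positive log2 fold changes of 0.38 and 0.28.

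**Figure D3:**
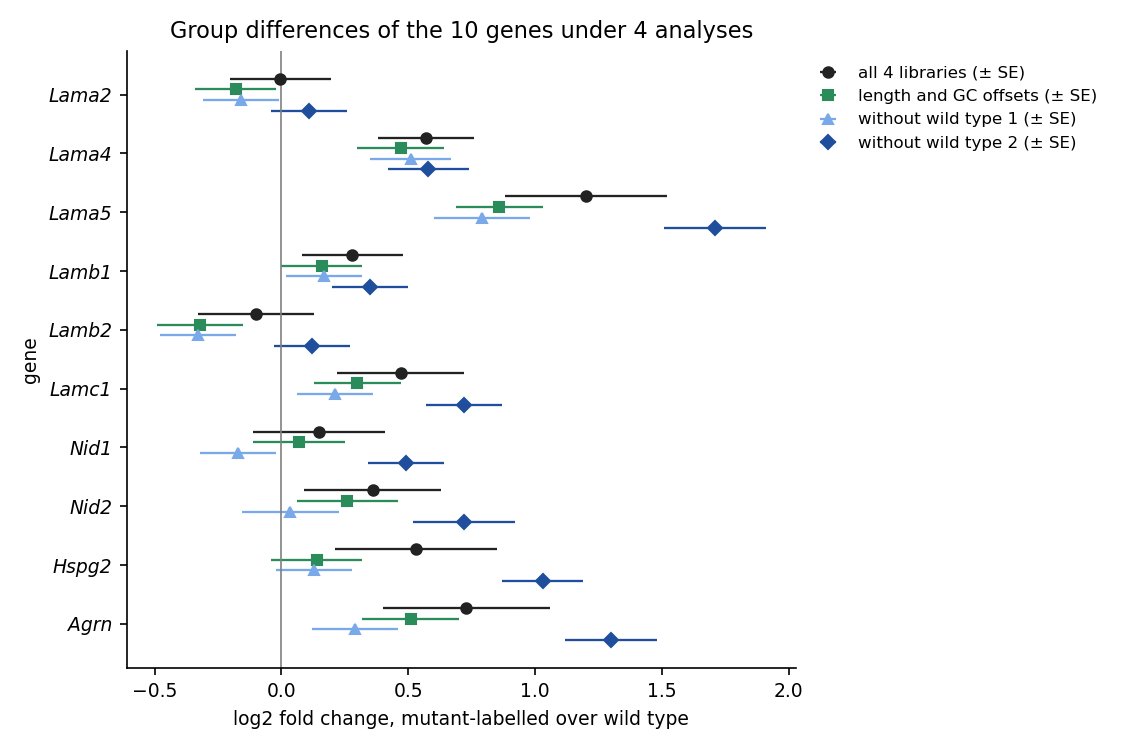
Points are log2 fold changes of mutant-labelled over wild type for the 10 genes and bars are ± 1 SE, for all 4 libraries, for offsets removing each library's trend with transcript length and GC content, and without each wild-type library. Lama2, Lamb2 and Nid1 lie on both sides of 0 and the points of the other genes lie to its right.

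Levels of different genes were compared as CPM per kilobase of the longest transcript. Hspg2, Lamb2 and Lamc1 filled the first 3 places in every library, and Nid1, Lamb1 and Lama4 held places 4, 5 and 6 in all 4. In wild type the levels were 69.2 ± 15.9 for Lamb2, 68.1 ± 29.9 for Hspg2 and 54.1 ± 14.1 for Lamc1 (SD, n = 2). The genes were measured in the same libraries, so their order was read within each library. Lamb2 lay above Lamc1 in both wild-type libraries (57.9 and 80.4 against 44.2 and 64.1), while Hspg2 (46.9 and 89.2) changed places with Lamb2. In the mutant-labelled libraries the levels were 98.5 ± 8.42 for Hspg2, 74.8 ± 1.71 for Lamc1 and 64.7 ± 1.3 for Lamb2. At the lower end stood Lama2 (14.3 ± 2.04), Nid2 (12.5 ± 4.23), Agrn (10.1 ± 4.9) and Lama5 (6.39 ± 2.86) in wild type. Neighbours in that order had overlapping ranges, but the order was the same in both wild-type libraries. It ran 12.9, 9.5, 6.66 and 4.37 in replicate 1 and 15.8, 15.5, 13.6 and 8.41 in replicate 2. The mutant-labelled levels were 16.8 ± 2.61 for Agrn, 16.0 ± 3.4 for Nid2, 14.7 ± 2.87 for Lama5 and 14.3 ± 0.479 for Lama2. Agrn (18.6 and 14.9) stood highest of these in both libraries and Nid2 above Lama5, while the place of Lama2 changed. Lama2 held place 7 in both wild-type libraries and places 10 and 8 in the mutant-labelled ones. The places depend on the gene length used. Per kilobase of the union of exons, which for Lama4 is 12068 bases against 6046 in the longest transcript, Nid1 and Lamb1 held places 4 and 5 in all 4 libraries, whereas Lama4 held places 7, 9, 9 and 7 and Lama2 places 8, 8, 10 and 10.

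The make-up of the laminin chains within a library does not depend on how libraries are scaled to each other, so it was measured as shares of counts per kilobase. Lama2 made up 37.4% and 37.1% of the 3 alpha chains in the wild-type pair, against 25.8% and 25.8% in the mutant-labelled pair. Lama5 made up 12.7% and 19.8% against 29.5% and 23.5%, and Lama4 made up 49.9% and 43.1% against 44.8% and 50.7%. Thus the groups did not overlap for Lama2 and Lama5 and overlapped for Lama4, and the Lama2 share differed by −11.5 percentage points with an SD of at most 0.221 in either group. Per kilobase of exon union the Lama2 share was 36.9% and 34.6% against 22.6% and 23.7%, and the Lama5 share 21.3% and 31.3% against 43.9% and 36.6%. Lamb2 made up 69.2% and 73.0% of the 2 beta chains in the wild-type pair, against 66.0% and 65.5% in the mutant-labelled pair. Nid2 made up 22.4% and 22.6% of the nidogens against 27.2% and 22.7%, so mutant replicate 2 was nearly level with wild type.

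**Figure D4:**
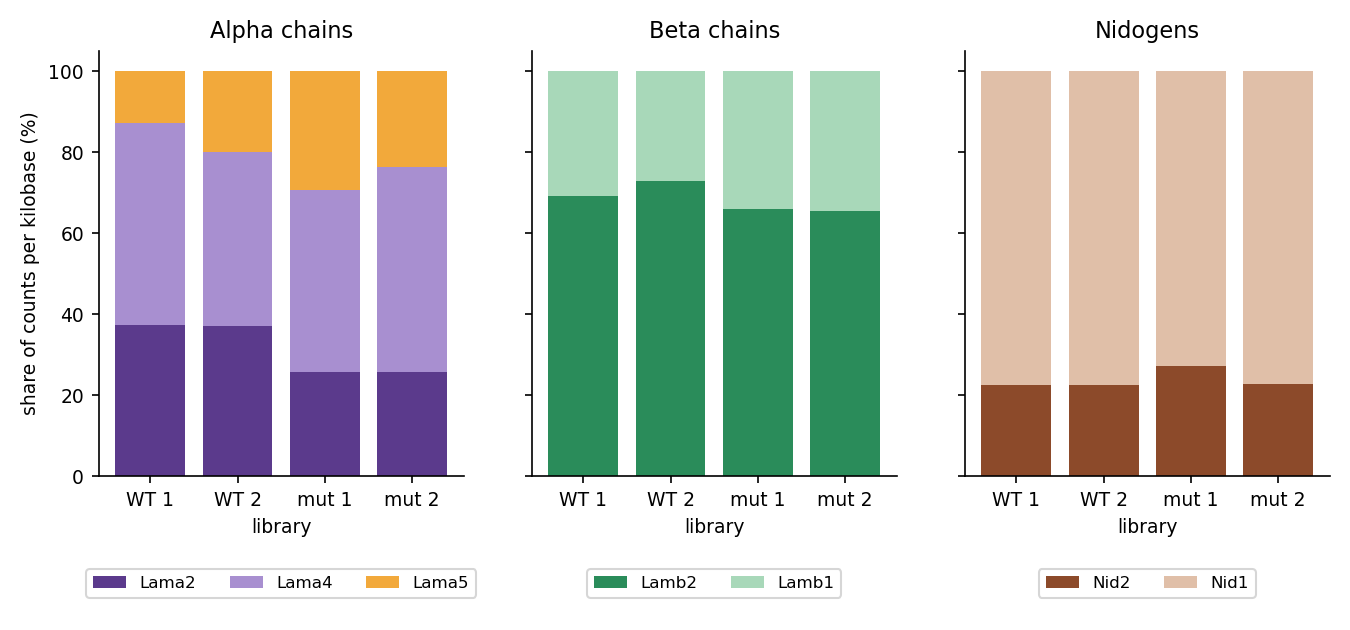
Stacked bars give the share of each gene in the counts per kilobase of its class (%), for each of the 4 libraries, with no averaging. The Lama2 segment is 37.4% and 37.1% in wild type and 25.8% in both mutant-labelled libraries, and the Lama5 segment is larger in the latter.

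Ratios to the shared gamma chain were also compared within each library, again without removing the trends with length and GC content. The 3 alpha chains together stood at 0.779 and 0.663 per Lamc1 in the wild-type pair, against 0.747 and 0.734 in the mutant-labelled pair, which overlap. The 2 beta chains stood at 1.89 and 1.72 per Lamc1 against 1.27 and 1.36, and the nidogens at 0.961 and 1.07 against 0.888 and 0.810, with no overlap in either. Hspg2 (1.06 and 1.39 against 1.37 and 1.26) and Agrn (0.151 and 0.212 against 0.245 and 0.203) overlapped. Lama5 per Lama2 was 0.339 and 0.533 in the wild-type pair, against 1.14 and 0.908 in the mutant-labelled pair, and Lama4 per Lama2 was 1.33 and 1.16 against 1.74 and 1.96. Of 12 such shares and ratios, 8 were without overlap. Among single tested genes, 59.0% were without overlap in either direction, and the 12 reuse the same genes, so they are not separate observations. The 8 each had a two-sided exact permutation p of 0.333 (0.5 after Benjamini-Hochberg adjustment). That is the smallest p that 2 against 2 libraries can give, so none could pass a threshold of 0.05.

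The other basement membrane genes were read from the same edgeR fit, as 7 lists of 96 genes in all, of which 92 were tested. Of these 4 rose and 3 fell, against 2.79% of all tested genes called higher and 4.58% called lower. In the network collagens, 2 of 8 rose, 0 fell and 6 did not pass, with a median log2 fold change of 0.43 that was 0.08 without wild type replicate 1 and 0.85 without wild type replicate 2. Col18a1, a collagen of vessel basement membranes, had 34.7 and 56.5 CPM in the wild-type pair, against 111 and 110.3 in the mutant-labelled pair (log2 fold change 1.28, SE 0.26, edgeR adjusted p 0.0286). Col15a1, a collagen of muscle and capillary basement membranes, had 221 and 298 CPM against 518 and 581 (log2 fold change 1.08, SE 0.24, edgeR adjusted p 0.0362). Of the 4 tested laminin chains outside the 10 genes, 1 fell and 0 rose. Their median log2 fold change was −0.14 and had no settled direction, at 0.25 with library totals, 0.23 with no filter, 0.49 and 0.27 when wild type replicate 1 or mutant replicate 1 was left out. The chain that fell was Lamb3, the beta chain of epithelial laminin, with 19.2 and 14.4 CPM against 7.98 and 8.84 (log2 fold change −0.997, SE 0.23, edgeR adjusted p 0.0399), and Lama1 was not tested because it had 1, 1, 0 and 16 counts.

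The few receptors called went in both directions. Of 15 tested cell surface receptors of laminin, collagen and agrin, 2 rose, 1 fell and 12 did not pass (median 0.24). Over all tested genes, 2.79% were called higher and 4.58% lower. Dag1, the dystroglycan that binds Lama2, perlecan and agrin, fell from 469 and 532 CPM to 238 and 224 CPM (log2 fold change −1.12, SE 0.21, edgeR adjusted p 0.0256). Itga6, the alpha 6 integrin subunit that binds laminins, rose from 37.2 and 45.5 CPM to 80.7 and 72.2 CPM (log2 fold change 0.89, SE 0.20, edgeR adjusted p 0.0391). Itga2, a collagen-binding integrin subunit, rose from 0.858 and 0.664 CPM to 2.99 and 4.05 CPM (log2 fold change 2.19, SE 0.39, edgeR adjusted p 0.0222), on 15, 13, 75 and 55 counts. Of 12 tested genes that build the laminin-binding sugar of dystroglycan, 1 fell (against 4.58% of all tested genes), 0 rose (2.79%) and 11 did not pass. The log2 fold change was above 0 for 2 of the 12, against 51.6% of tested genes. Their median of −0.40 was −0.009 with library totals, where the median of all genes was 0.41. The gene that fell was B4gat1, a glucuronyltransferase, with 33.6 and 31.97 CPM against 19.8 and 19.1 (log2 fold change −0.75, SE 0.18, edgeR adjusted p 0.0453).

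No gene of the remaining lists passed, against 7.37% of all tested genes. Of 18 other basement membrane proteins 0 passed (median 0.26), and the most abundant were Sparc, with 1757 and 1681 CPM against 2297 and 2318 (log2 fold change 0.42, edgeR adjusted p 0.272), and Pxdn (0.56, edgeR adjusted p 0.195). Of 18 heparan sulfate enzymes 0 passed (median 0.0084), with Sulf2 at −0.04 (edgeR adjusted p 0.912) and Ndst1 at −0.45 (0.233). Of 17 tested proteases and inhibitors 0 passed (median 0.0041), with Ctsb at 0.0041 (edgeR adjusted p 0.992) and Timp2 at 0.15 (0.673). Without mutant replicate 2, 0 of the 92 genes passed in either direction (1.4% of all genes were called higher and 0.987% lower). Without mutant replicate 1, 2 rose and 1 fell (against 1.52% and 1.15%), and of the 7 genes named above Itga2 alone was among them (edgeR adjusted p 0.0116), with Col18a1 at 0.0557 and the others between 0.209 and 0.403. Without wild type replicate 1, 12 rose and 8 fell (against 5.52% and 8.76% of all genes), and without wild type replicate 2, 25 rose and 11 fell (against 16.0% and 19.5%). Scaling by library totals gave 14 rises and 0 falls (against 7.78% and 1.35%), with Dag1 at −0.73 (edgeR adjusted p 0.0625), Lamb3 at −0.59 (0.111) and B4gat1 at −0.36 (0.226). With upper-quartile factors Lamb3 and B4gat1 missed the threshold (edgeR adjusted p 0.0504 and 0.0579).

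**Figure D5:**
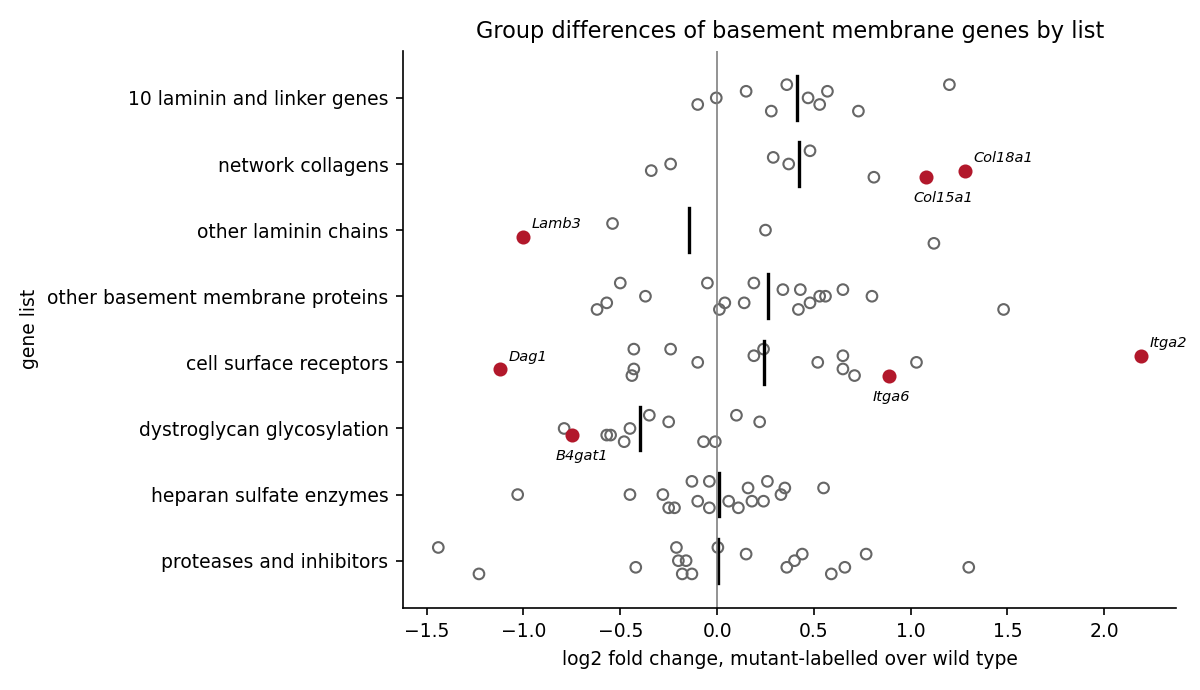
Log2 fold changes of mutant-labelled over wild type for each tested gene of the 10 and of 7 lists of related genes, with filled points for an edgeR adjusted p under 0.05 and a bar at each list's median. Of the 7 filled points 4 lie right of 0 and 3 left of it, and none belongs to the 10 genes.

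Summed levels of fibroblast and cardiomyocyte markers did not overlap between the groups. Nor did the endothelial, Schwann, epicardial and immune sums below, and 59.0% of single tested genes were without overlap in either direction. The 8 fibroblast markers together had 2359 and 2637 CPM in the wild-type pair, against 4140 and 4525 in the mutant-labelled pair, with 1 of 8 called higher, and the 8 cardiomyocyte markers had 57563 and 54791 against 31441 and 31424, with 1 of 8 called lower. The first sum was higher and the second lower in both mutant-labelled libraries. Myh6 alone gave 23254 and 28506 CPM of the second sum in the wild-type pair, against 13687 and 13626 in the mutant-labelled pair. The 8 endothelial markers had 1439 and 1894 CPM against 2218 and 1918 with 0 called, so wild type replicate 1 was again the lowest, and the 8 mural cell markers had 2267 and 2644 against 2638 and 2772 with 0 called. Schwann cell markers summed to 28.9 and 28.8 against 35.6 and 35.3 CPM (0 of 8 called), and epicardial markers to 63.4 and 65.2 against 60.5 and 40.9. Of the 8 epicardial markers 1 was called higher, against the direction of most of the list (2 of 8 above 0, median log2 fold change −0.84). Over all tested genes, 2.79% were called higher and 4.58% lower. Immune markers summed to 157 and 131 against 159 and 174 CPM (0 of 7 called) and erythroid markers to 711 and 508 against 540 and 864 (0 of 6 called). None of these markers was at 0 in all 4 libraries, and their part in the differences of the laminin and linker genes was not tested.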

How the data were processed

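RNA libraries of mouse heart at postnatal day 14 (2 wild type, 2 labelled Carm1 mutant) were analysed. The authors deposited raw counts per gene, and the build mm10 and the tools HISAT2 and FastQC are listed per the submitters' processing notes. For the counting program, its annotation and its strand setting, no source used here gives a name. Columns were matched to samples by title. GENCODE M21 (GRCm38) named 54723 of the 54752 identifiers and also gave positions, transcript lengths and GC content.

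After filterByExpr and TMM scaling, genotype differences were tested in edgeR 4.0.16 (quasi-likelihood test, genotype as the only term, 2 residual degrees of freedom), with Benjamini-Hochberg adjustment over 15283 genes and a threshold of 0.05. CPM are TMM-normalised, and the SE is the size of the log2 fold change divided by the square root of F. The loess offsets (span 0.5) for length and GC remove any group difference that follows those properties too. Replicates did not repeat each other within counting error (chi-square per degree of freedom 51.1 for the wild-type pair, 11.5 for the mutant-labelled pair). The fit was also run on simulated counts, with the same dispersion for every gene and a length trend in a wild-type library or in none. These settings are simpler than the data, so no result here rests on them. Alternatives also used DESeq2 1.42.0 and limma 3.58.1 and are given in the closing section. Named genes are the 10 members and, of each related list, up to 3 called genes by adjusted p or else the 2 most abundant. The members and lists were chosen with earlier results of these data known. Shares of Lama2 and Lama5 and the ratios were added after the levels had been seen. Intervals of log2 fold changes are 95% intervals from edgeR's moderated degrees of freedom.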

Additional observations from a re-analysis of the deposited data

How the results depend on the processing

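For the 10 genes, the number called higher was 0 with DESeq2 size factors, upper-quartile factors, mitochondrial genes left out, a filter of 1 CPM in 2 libraries and limma-voom, where 2.6%, 3.31%, 2.79%, 3.35% and 2.79% of all genes were. It was 2 with library totals, 2 with no filter on low counts (Lama5 and Agrn, against 4.42% of genes), 1 with length offsets, 1 with length and GC offsets and 1 with the DESeq2 Wald test. With a library left out, where a group of 1 takes its spread from the other, it ran from 0 to 7. Over all genes 1126 were called. That number was 2630 with no filter, 2937 with length offsets, 2888 with length and GC offsets and 1709 with DESeq2, and 377 to 5679 with a library left out.

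Of the related genes, 4 were called higher and 3 lower. The counts were 14 and 0 with library totals (7.78% and 1.35% of all genes), 12 and 5 with no filter (4.42% and 5.52%), 13 and 8 with length offsets (7.79% and 11.4%), 12 and 9 with length and GC offsets (7.57% and 11.3%), and 7 and 5 with DESeq2 (4.2% and 7.92%). With upper-quartile factors 1 was lower (3.62%). With a library left out they ran from 0 to 25 and from 0 to 11. The cause of these shifts was not tested.

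Same-numbered libraries correlated by −0.247 in their deviations from the group means, and the labels give a shared number no meaning. With a replicate block 1 of the 10 genes (Lama5, against 3.8% of genes) and 8 related genes were higher, and the calls of Itga6 and B4gat1 were lost (edgeR adjusted p 0.0589 and 0.0954). With that block and length offsets the counts were 2802 for all genes, 1 of the 10 genes (Lama5, against 7.79%), and 15 higher and 8 lower of the related genes (7.79% and 10.5% of all genes). A crossed replicate block, chosen after seeing the data, gave 4176, 3 (against 13.3%), 21 and 10 (13.3% and 14%).

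Near 0 the sign turned for Lama2 (0.38 with library totals, 0.06 with upper-quartile factors, 0.0095 with the 1 CPM filter, 0.0029 with the replicate block, 0.0024 with limma-voom, and −0.16 to 0.11 with a library left out), Lamb2 (0.28 with library totals, −0.33 to 0.12 with a library left out) and Nid1 (−0.17 to 0.49 with a library left out). It also turned for Sulf2 (0.35 with library totals, 0.019 with upper-quartile factors, −0.15 to 0.05 with a library left out) and Ctsb (−0.013 with DESeq2 size factors and with its Wald test, −0.015 with no filter, −0.09, −0.045 and −0.06 with length, length and GC, and blocked length offsets, −0.21 to 0.19 with a library left out). The Lama4 share differed by 1.27 percentage points, and by −1.43 with exon unions and −2.11 to 4.66 with a library left out, so it has no settled direction. The Lamb2 and Nid2 shares differed by −7.26 to −3.46 and 0.261 to 4.75 percentage points under the alternatives tried. Their sign could not have turned, so its stability is no support. Leaving out a library cannot reverse groups that do not overlap, and another gene length cannot reorder the libraries in these shares. The medians of the heparan sulfate and protease lists lay near 0 and took both signs. Counting error was at most 3.51% for any of the 10 genes in a library. The exon union was tried for the ranks and for the Lama2 and Lama5 shares after seeing the data.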
